A study of Mus musculus with 9 samples.

Results

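Transcript levels of 10 genes of ethanol, acetaldehyde and acetate metabolism were compared, Adh5, Cat, Cyp2e1, Aldh2, Aldh1b1, Aldh3a2, Aldh7a1, Acss1, Acss2 and Acly, in the mouse fetal brain after early alcohol exposure. They were chosen by symbol, for their part in ethanol clearance and acetyl-CoA formation, and all 10 were found among the 27095 loci of the expression table, each as 1 entry listed under that gene's name alone, although the intervals of 4 entries, Aldh1b1, Aldh7a1, Acss1 and Acss2, also hold other entries. RNA was sequenced from 9 wild type C57BL/6 fetuses taken on gestational day 17, 3 in each of 3 groups. Dams of the control group received lactated Ringer's solution early in gestation. The EtOH-exposed fetuses came from dams given EtOH into the peritoneum on that same early day, and were sorted at collection into an EtOH unaffected group without ocular and cortical patterning defects and an EtOH affected group with them. The exposure therefore lay many days before the measurement, and the affected group was defined by its phenotype. The labels call the tissue fetal brain and the methods call it cortex. Neither the sex nor the litter of the sequenced fetuses was used here.

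Ethanol is cleared by oxidation to acetaldehyde and then to acetate. Alcohol dehydrogenases in the cytosol, the cytochrome P450 enzyme CYP2E1 in the endoplasmic reticulum and catalase in the peroxisome carry out the first step, and aldehyde dehydrogenases, chiefly the mitochondrial ALDH2, the second. In the brain, catalase is regarded as a main route of the first step, because the classical liver alcohol dehydrogenases are scarce there. Acetate is joined to coenzyme A by acyl-CoA synthetases, and ATP citrate lyase makes the same product, acetyl-CoA, from citrate, which supplies lipid synthesis and histone acetylation.

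Each gene has 1 value per group, in FPKM, the fragments mapped to a gene scaled to its length and to the size of the library, which Cuffdiff estimated from the 3 libraries together. Since no value of a single animal was used, no value below carries an error and no difference could be tested. Differences are given as log2 differences of FPKM + 0.1, and are read beside their spread over the 15548 loci with a mean FPKM of at least 1 over the groups. A difference of at least 1.3-fold, or 0.38 on the log2 scale, was marked as past the fold. In bulk tissue, fewer cells of a type and less RNA per cell cannot be told apart.

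Of the 9 genes above the minimum, 0 were past the fold in any comparison. Their levels in the exposed groups lay between 4.42% below and 15.8% above control, and Cyp2e1 was too low for a ratio. The order of the 10 levels was the same in all 3 groups, from Adh5 down through Acly, Cat, Aldh2, Aldh7a1, Aldh1b1, Aldh3a2, Acss1 and Acss2 to Cyp2e1. In control fetuses, the FPKM of neighbours in this order differed least for Acss1 and Acss2, at a ratio of 1.05, and for Aldh1b1 and Aldh3a2, at 1.09. Without a spread between animals, none of these neighbours can be said to differ.

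**Figure D1:**
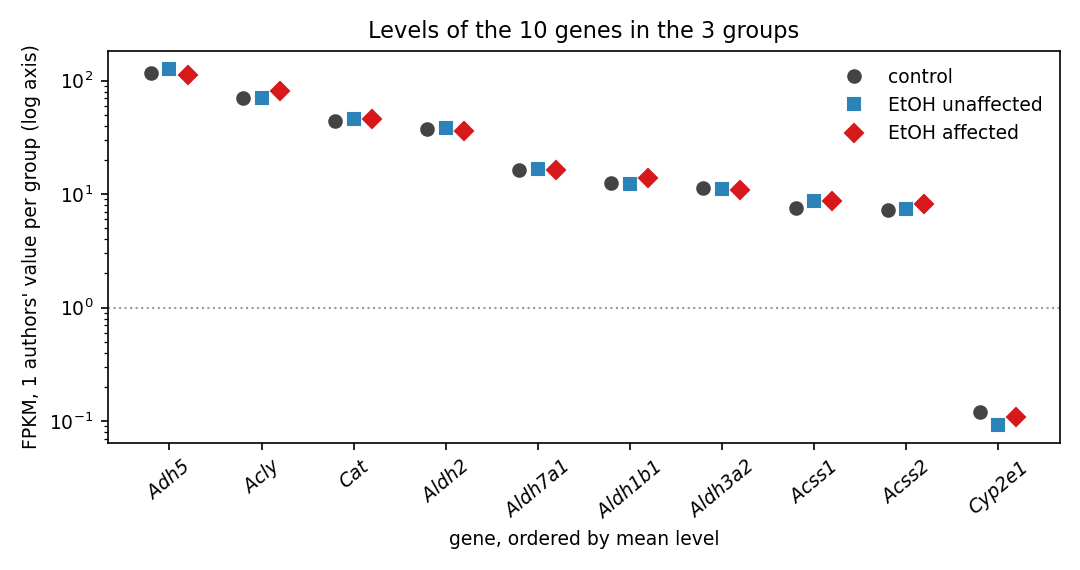
FPKM of the 10 genes (log axis), ordered by mean level, with 1 value of the authors per group and no error bars because values of single animals were not used. The dotted line marks an FPKM of 1, and the points of a gene lie close together, with Adh5 highest at 117.5 in control and Cyp2e1 lowest at 0.12.

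Of the enzymes of the first step, Adh5 was the most abundant transcript. This class of alcohol dehydrogenase acts mainly on the glutathione adduct of formaldehyde and has a low affinity for ethanol. Its FPKM was 117.5 in controls, 127.8 in unaffected fetuses and 113.2 in affected fetuses. The unaffected value was thus the highest and the affected value the lowest, with log2 differences against control of 0.12 and -0.05. Between the exposed groups, the affected value of Adh5 was the lower, at -11.5% or a log2 difference of -0.18. Adh5 lies on chromosome 3 of mm10 from 138443163 to 138455499, on the plus strand, and no other GENCODE gene overlaps it.

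Cat encodes catalase, which removes hydrogen peroxide and can use it to oxidise ethanol. It had an FPKM of 43.9 in controls, 45.9 in unaffected fetuses and 46.3 in affected fetuses. Both exposed groups were slightly above control, with log2 differences of 0.06 and 0.08, and the exposed groups differed by 0.01. With division by Gapdh and Ywhaz, the affected value lay below both others, at -0.03 against control and -0.06 against unaffected, so the order of the groups depends on the scaling. Cat lies on chromosome 2 from 103453903 to 103485153. Red blood cells are rich in catalase, and their markers moved more than Cat did. The summed FPKM of the 5 red blood cell loci found, from a list of 9 genes, was 257.7 in controls, 336.1 in unaffected fetuses and 211.2 in affected fetuses, with none of them at 0 in any group. The joined locus of Hba-a1 and Hba-a2, the adult alpha globin genes, had 236.1, 303.9 and 189.0. The part of blood in the values of Cat was not tested.

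Cyp2e1, the ethanol-inducible P450 of the liver, had the lowest level of the 10 genes, at percentile 28.2 of all loci. Its FPKM was 0.12 in controls, 0.0925 in unaffected fetuses and 0.108 in affected fetuses, a mean of 0.107, against 7.22 in control for Acss2, the next lowest gene. No fold is given at this level. Cyp2e1 was therefore the only one of the 10 genes to miss the minimum FPKM of 1. It lies on chromosome 7 from 140763831 to 140774977.

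The promoter windows of Adh5 and Cyp2e1, the highest and lowest of the 10 transcripts, are shown because they differ in composition. RefSeq windows on GRCm38.p6, the same assembly as mm10, run from 250 bases before to 50 after a gene start. Of the 10 genes, 8 had a window, and Aldh2 and Aldh7a1 had none in the table. The Adh5 window next to the locus (chr3:138442843-138443142, plus strand) has 65% G and C and 26 CpG dinucleotides, and the Cyp2e1 window (chr7:140763569-140763868, plus strand) has 49.7% and 4. Over all 32851 windows the medians were 52.7% and 7. In the sequences, read 5′ to 3′, capitals mark GGGCGG, the core of a GC box, on either strand, and TATAAA, the TATA box. Adh5 has 3 of the former and Cyp2e1 has 1 of the latter. Over all windows, 35.7% hold GGGCGG and 13.6% hold TATAAA.
Adh5: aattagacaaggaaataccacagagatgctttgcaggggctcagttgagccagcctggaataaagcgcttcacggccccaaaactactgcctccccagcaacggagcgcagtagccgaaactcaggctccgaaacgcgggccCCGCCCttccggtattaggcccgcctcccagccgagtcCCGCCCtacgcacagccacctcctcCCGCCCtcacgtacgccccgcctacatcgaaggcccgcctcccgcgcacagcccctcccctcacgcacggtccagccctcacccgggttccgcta
Cyp2e1: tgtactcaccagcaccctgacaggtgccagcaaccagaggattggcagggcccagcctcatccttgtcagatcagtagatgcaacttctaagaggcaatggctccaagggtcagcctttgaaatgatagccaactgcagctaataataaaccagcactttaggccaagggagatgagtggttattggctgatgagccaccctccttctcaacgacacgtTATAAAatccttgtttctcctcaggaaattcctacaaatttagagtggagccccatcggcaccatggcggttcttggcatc

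Among the 8 genes with windows, Cyp2e1 was the only one with no GGGCGG in any window. Adh5 has a second, upstream window on the same chromosome, from 138436950 to 138437249, which holds 1 TATAAA and no GGGCGG and has 47% G and C. Of the 9 windows, 7 hold GGGCGG and 6 hold CCAAT on either strand, against 37.4% of all windows for CCAAT. These matches are a description of the letters and not of factor binding.

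The aldehyde dehydrogenases of the second step differed little between groups, with a median log2 difference of -0.02 in affected against control offspring. Aldh2, the mitochondrial enzyme that carries most acetaldehyde oxidation, had an FPKM of 37.3 in controls, 38.5 in unaffected fetuses and 35.7 in affected fetuses. The affected value was the lowest, with a log2 difference of -0.07 against control and -0.11 against unaffected. Its level was close to a constant share of that of Adh5, which was higher by a factor of 3.15 in controls, 3.32 in unaffected fetuses and 3.17 in affected fetuses. Aldh2 lies on chromosome 5 from 121567686 to 121593824, on the minus strand, and GENCODE M21 places Gm42879 across it on the opposite strand.

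Aldh1b1, a mitochondrial relative of Aldh2 that also accepts acetaldehyde, was the only aldehyde dehydrogenase among the 10 genes with a log2 difference above 0.1 in affected offspring. Its FPKM was 12.4 in controls, 12.2 in unaffected fetuses and 13.8 in affected fetuses. The affected value was thus above both others, by 10.9% against control and 13.5% against unaffected, or 0.15 and 0.18 on the log2 scale. The level of Aldh2 was 3.00 times that of Aldh1b1 in control and 2.59 times in affected offspring. The locus on chromosome 4 runs from 45796189 to 45827194 and shares these bounds with Igfbpl1, a gene on the opposite strand with an FPKM of 570.7 in controls, 609.7 in unaffected fetuses and 541.9 in affected fetuses. In GENCODE M21, the 2 genes do not overlap, and the log2 differences of Igfbpl1 against control were 0.10 and -0.07.

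Aldh3a2, the fatty aldehyde dehydrogenase of the endoplasmic reticulum, had an FPKM of 11.4 in controls, 11.0 in unaffected fetuses and 10.9 in affected fetuses. Both exposed values were just below control, at log2 differences of -0.05 and -0.06. It lies on chromosome 11 from 61244754 to 61267336.

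Aldh7a1, which oxidises an aldehyde of lysine breakdown, varied least of all, with an FPKM of 16.2 in controls, 16.7 in unaffected fetuses and 16.4 in affected fetuses and a range of 0.05 on the log2 scale. Its locus on chromosome 18, from 56524762 to 56587712, shares its bounds with Phax. In GENCODE M21 the genes lie on opposite strands and overlap over 10509 bases, so reads from the overlap cannot be told apart unless strand was used in counting, which the sources used here do not state. Phax had 62.4, 64.3 and 59.6 FPKM. AC162035.3 and Mir1258 also overlap the gene on that strand.

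The genes of acetyl-CoA formation had the highest differences of the 9 genes in affected against control offspring, before any adjustment for transcript length. Acly encodes ATP citrate lyase, the cytosolic source of acetyl-CoA from citrate, and had an FPKM of 69.9 in controls, 70.9 in unaffected fetuses and 81.0 in affected fetuses. Control and unaffected values lay within 1.42% of each other, and the affected value was 15.8% above control and 14.2% above unaffected. The log2 differences were 0.21 and 0.19, and 0.02 for unaffected against control. This was the widest range over the groups among the 9 genes above the minimum, at 0.21.

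Acss2, the acetyl-CoA synthetase of cytosol and nucleus, likewise had close control and unaffected values, at a lower level. It had an FPKM of 7.22 in controls, 7.37 in unaffected fetuses and 8.13 in affected fetuses, and the affected value was above control by 12.6% and above unaffected by 10.3%. The log2 differences were 0.17 and 0.14. Its level stayed at about a constant share of Acly, which was higher by a factor of 9.68 in controls, 9.62 in unaffected fetuses and 9.96 in affected fetuses.

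Acss1, the mitochondrial acetyl-CoA synthetase, differed from these in that the unaffected value lay near the affected one. Its FPKM was 7.60 in controls, 8.65 in unaffected fetuses and 8.73 in affected fetuses, so both exposed groups lay above control, by 13.8% and 14.8%. The log2 differences against control were 0.18 and 0.20, and the exposed groups differed by 0.01. The difference of Acss1 in unaffected offspring was the largest of the 9 genes in that comparison.

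Over the 3 genes, the summed FPKM was 84.7 in controls, 86.9 in unaffected fetuses and 97.8 in affected fetuses, most of it from Acly. The median log2 difference of the 3 genes was 0.03 in unaffected and 0.20 in affected offspring against control, and 0.14 between the exposed groups. All 3 genes were above control in affected offspring under every setting tried, with log2 differences between 0.11 and 0.21 for Acly, 0.10 and 0.20 for Acss1, and 0.07 and 0.17 for Acss2. The lowest values came with division by the reference genes Gapdh and Ywhaz.

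The promoter windows of Acss2 and Acly are shown because both genes had close control and unaffected values and a higher affected value. The Acss2 window (chr2:155517793-155518092, plus strand) has 65% G and C, and the Acly window (chr11:100527951-100528250, minus strand) has 68.7%. Capitals again mark GGGCGG on either strand, with 5 matches in Acss2 and 4 in Acly. Neither holds TATAAA. The letters TCACNCCAC, a form of the sterol regulatory element, were in 0 of the 9 windows of the 10 genes on either strand and in 1.24% of all windows, and no match says only that these letters are not in these windows.
Acss2: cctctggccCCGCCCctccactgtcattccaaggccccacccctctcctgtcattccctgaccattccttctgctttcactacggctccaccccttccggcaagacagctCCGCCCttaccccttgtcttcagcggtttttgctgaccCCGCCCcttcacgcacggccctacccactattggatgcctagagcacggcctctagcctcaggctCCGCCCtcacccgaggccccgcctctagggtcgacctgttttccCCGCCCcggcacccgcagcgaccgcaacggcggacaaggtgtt
Acly: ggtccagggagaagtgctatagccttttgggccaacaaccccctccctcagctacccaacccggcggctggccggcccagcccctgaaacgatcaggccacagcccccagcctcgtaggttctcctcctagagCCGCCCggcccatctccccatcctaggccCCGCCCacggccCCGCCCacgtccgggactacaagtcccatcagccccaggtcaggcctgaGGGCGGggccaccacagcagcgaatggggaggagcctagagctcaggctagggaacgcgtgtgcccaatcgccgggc

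The loci of these genes differ in how far they stand alone. Acly lies on chromosome 11 from 100476351 to 100528000, where GENCODE M21 places only the microRNA gene Mir7116 within it. The Acss2 locus on chromosome 2, from 155490379 to 155562743, is shared with Ggt7 and with 4930471I20Rik. Ggt7 is on the minus strand and Acss2 on the plus strand, and the annotated genes overlap over 290 bases. GENCODE M21 places Mipep-ps, Gm20637, Acss2os and Gss across the Acss2 gene as well. Ggt7 had an FPKM of 11.8 in controls, 11.9 in unaffected fetuses and 11.3 in affected fetuses, a log2 difference of -0.06 where Acss2 had 0.17. The Acss1 locus, from 150618110 to 150668932 on chromosome 2, overlaps the noncoding gene E130215H24Rik over 1007 bases on the opposite strand, and that gene had an FPKM of 0.56, 0.607 and 0.45. The entry 4930471I20Rik had 0.603, 1.12 and 0.942, higher in both exposed groups than in control, as Acss2 was. The last 2 are low, and no fold is given for them.

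Beside all loci, the differences of the genes were ordinary or small. For unaffected against control, 0 of the 9 genes above the minimum were past the fold, while 4.39% of the 15548 loci were higher and 5.38% lower past it. For affected against control the count was again 0 of 9, and 8.59% of loci were higher and 8.35% lower. For affected against unaffected it was 0 of 9, with 16.3% of loci higher and 14.3% lower. The comparisons share groups, so their counts do not stand apart from each other. With values divided by Gapdh and Ywhaz, the shares of loci became 5.07% higher and 14.3% lower for affected against control and 12.7% and 19.2% for affected against unaffected. With the trend over transcript length removed, they were 2.47% and 4.16% for affected against control. The count for the 9 genes was 0 under these settings too.

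In absolute size, the difference of Acly in affected against control offspring exceeded that of 56.5% of loci, that of Acss1 53.1%, that of Acss2 46.3% and that of Aldh1b1 41.0%. Aldh7a1 exceeded only 4.01%. In unaffected offspring, Acss1 exceeded 72.2% of loci and Adh5 54.9%, and the remaining 7 genes at most 31.4%. Between the exposed groups, no gene exceeded more than the 39.1% reached by Acly. The median over the 9 genes was 0.05, 0.08 and 0.01 in the 3 comparisons, where all loci had 0.01, 0.02 and 0.01.

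**Figure D2:**
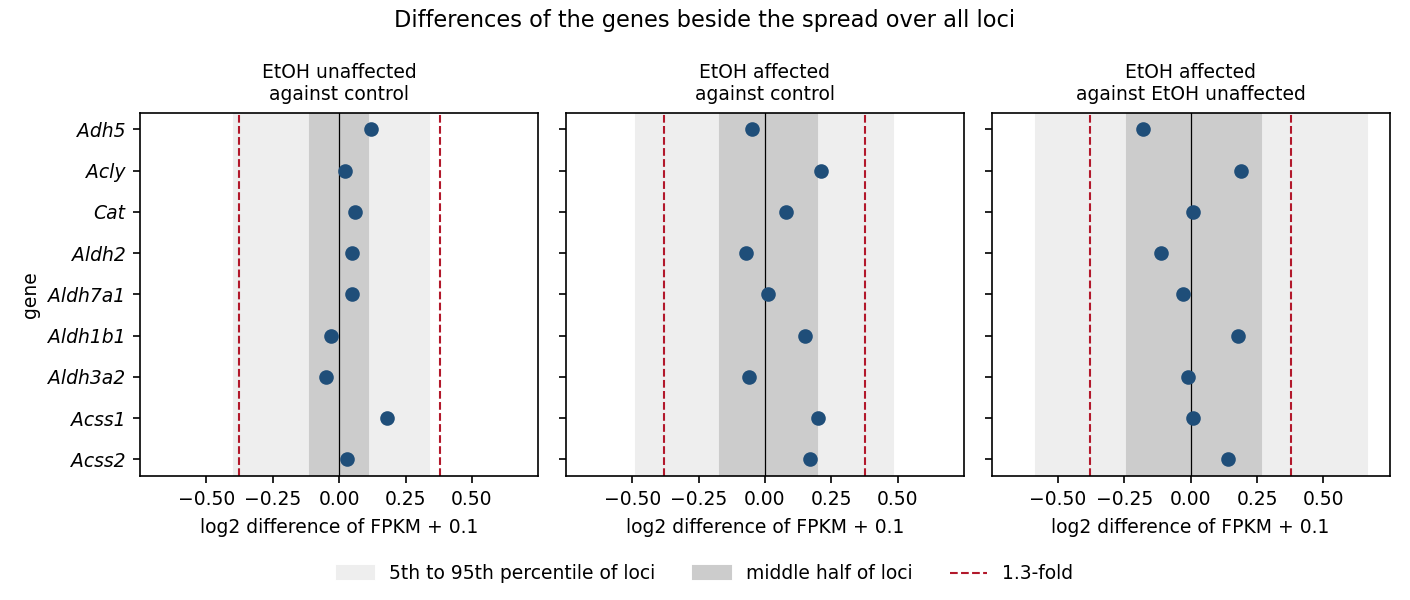
Log2 differences of FPKM + 0.1 for the 9 genes with a mean FPKM of at least 1 (points), in 3 comparisons. Grey bands show the central ranges of all 15548 loci (dark, 25th to 75th percentile, and light, 5th to 95th) and dashed lines the 1.3-fold limit, and every gene lies between these lines, with the largest difference at 0.21.

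Differences over all loci followed transcript length. Across the 12559 loci with a length in GENCODE M21 (80.8%), the Spearman correlation of the log2 difference with the length of the longest transcript was -0.49 for unaffected against control, 0.51 for affected against control and 0.59 for affected against unaffected. These are correlations across genes of the same libraries, and genes are not independent replicates. The 9 genes have longest transcripts between 2298 nt in Aldh1b1 and 4426 nt in Acly, and the running median over loci of like length at these lengths ranged from -0.13 to 0.09 over the 3 comparisons. For affected against control, the running median was -0.06 at the length of Aldh1b1 and 0.09 at that of Acly. Less this median, the difference was 0.21 for Aldh1b1, 0.16 for Acss1, 0.14 for Acss2 and 0.12 each for Acly and Cat. Aldh1b1 thus moved above Acly once genes of like length were the base, and against unaffected its difference became 0.31. The part of length in these differences was not tested.

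**Figure D3:**
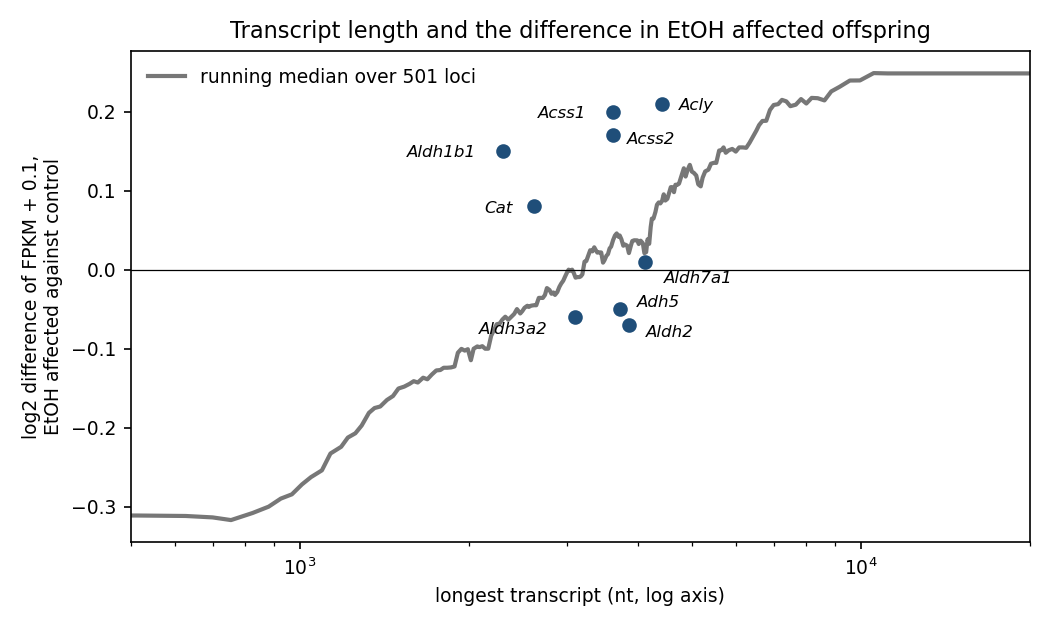
Log2 difference of FPKM + 0.1 in affected against control offspring for the 9 genes (points, labelled) against their longest transcript (nt, log axis), with the running median over loci of like length (grey line, flat at the ends where the window can move no further). Aldh1b1, Cat, Acss1, Acss2 and Acly lie above the line, and Adh5, Aldh2, Aldh3a2 and, by 0.01, Aldh7a1 below it.

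Other enzymes of the pathway were described from lists. Of 8 other alcohol dehydrogenases and aldehyde reductases, 7 were found and 3 had an FPKM of at least 1. The liver and stomach enzymes were scarce, as Adh1 had an FPKM of 0.0931 in control and Adh4 was listed at 0 in every group. The 3 above the minimum were all lower in affected offspring. Akr1a1, an aldehyde reductase, had an FPKM of 428.8 in controls, 463.5 in unaffected fetuses and 365.6 in affected fetuses, a log2 difference of -0.23 against control and -0.34 against unaffected. Akr1b3, aldose reductase, had 41.1, 46.5 and 34.1, and its log2 difference between the exposed groups was -0.44. Adhfe1, a mitochondrial dehydrogenase of hydroxy acids, had 1.31, 1.58 and 1.06 and a log2 difference of -0.53. None of the 3 was past the fold against control, and 2 were lower past it against unaffected, as were 14.3% of all loci. With the length trend removed, 1 of the 3 was lower past it against control, as were 4.16% of all loci. With division by Gapdh and Ywhaz, all 3 were lower past it against unaffected, as were 19.2% of all loci. Adh5, with -0.05 against control, had the smallest difference of the alcohol dehydrogenases and reductases above the minimum.

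Of 16 other aldehyde dehydrogenases, 10 had an FPKM of at least 1, and 0 of these were past the fold in affected against control offspring, where 8.59% of all loci were higher and 8.35% lower. With division by Gapdh and Ywhaz, 2 were lower past it, as were 14.3% of all loci. Before this division, the median log2 difference of the 10 was -0.02. Aldh1a3 and Aldh1a2, which make retinoic acid, and Aldh16a1 and Aldh9a1 had the largest differences in that comparison, at -0.32, -0.32, 0.16 and -0.13. Aldh1a3 was the gene past the fold in the comparisons with unaffected offspring, higher than control as were 4.39% of all loci, and lower in affected than unaffected as were 14.3%. It had an FPKM of 1.86 in controls, 3.06 in unaffected fetuses and 1.48 in affected fetuses, and the log2 difference was 0.68 for unaffected against control and -1.0 for affected against unaffected. The astrocyte enzyme Aldh1l1 had 17.7, 17.0 and 17.0 FPKM.

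For CYP2E1 to work, electrons come from the reductase encoded by Por. Por had an FPKM of 32.4 in controls, 30.4 in unaffected fetuses and 39.0 in affected fetuses, and its log2 difference against control was -0.09 and 0.27.

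Of 12 other genes of acetate and acetyl-CoA handling, 10 had an FPKM of at least 1. In affected offspring, 8 of the 10 were below control and 0 past the fold, where 8.59% of all loci were higher and 8.35% lower. With division by Gapdh and Ywhaz, 3 were lower past it, where 14.3% of all loci were. Before this division, the median log2 difference of the 10 was -0.11 against control and -0.24 against unaffected, where all loci had 0.02 and 0.01. Against unaffected, 3 of the 10 were lower past the fold, as were 14.3% of all loci. With the length trend removed, 1 was, as were 7.22% of all loci. The medians were then -0.14 against unaffected and -0.06 against control. Acot8, Oxct1 and Acat2 were among those with the largest differences against control, at -0.31, -0.31 and -0.22. Oxct1 and Acat1 break down ketone bodies in mitochondria, and Oxct1 had an FPKM of 104.9 in controls, 111.1 in unaffected fetuses and 84.5 in affected fetuses. Slc25a1, the citrate carrier that feeds Acly, had 51.1, 53.4 and 50.3, so its affected value lay just below control where that of Acly lay above. Acss3, the remaining acyl-CoA synthetase of this short-chain family in the list, had 0.284 FPKM in control.

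The genes of fatty acid synthesis use the product of Acly. Of 8 genes, 7 had an FPKM of at least 1. In affected against control offspring, 1 was higher past the fold, as were 8.59% of all loci. The median was 0.22, and the median of the running medians at these genes' lengths was 0.13. With the length trend removed, 0 were higher and 1 lower past the fold, and the median was 0.02. Fasn, fatty acid synthase, had an FPKM of 32.8 in controls, 24.6 in unaffected fetuses and 45.9 in affected fetuses, with log2 differences of -0.41 and 0.49 against control and 0.90 between the exposed groups. Acaca, acetyl-CoA carboxylase, had 18.2, 15.7 and 21.8. Scd1, a desaturase, and the joined locus of Mir5114 and Scd2 had log2 differences of -0.31 and 0.26 in affected against control offspring. In unaffected offspring, all 7 were below control, with 1 lower past the fold, as were 5.38% of all loci, and a median of -0.18. With the length trend removed, 0 were past the fold in unaffected offspring and the median was -0.14. Acly was above control by 0.02 there, a difference that became -0.01 with division by Gapdh and Ywhaz.

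**Figure D4:**
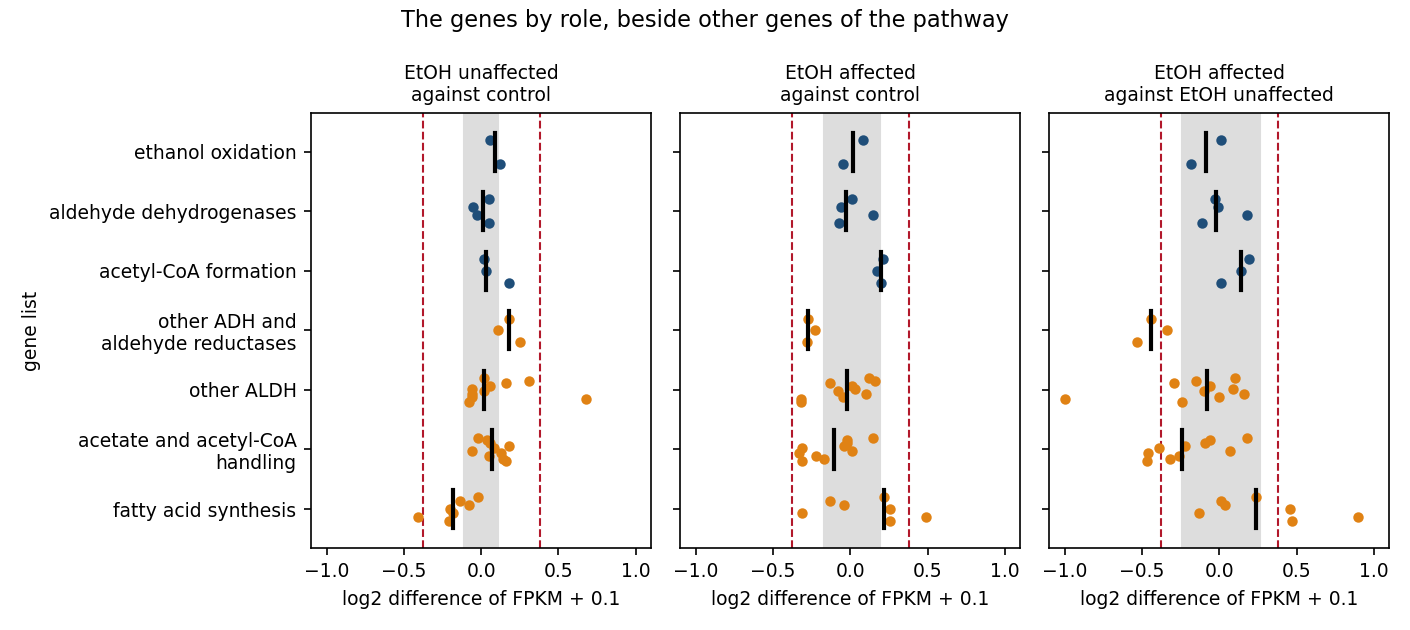
Log2 differences of FPKM + 0.1 for the genes by role (blue) and for other genes of the pathway (orange), each point a gene with a mean FPKM of at least 1, with black bars at the medians, in 3 comparisons. The grey band is the 25th to 75th percentile of all loci and dashed lines mark 1.3-fold. In affected against control offspring, acetyl-CoA formation has a median of 0.20 and the other alcohol dehydrogenases and aldehyde reductases one of -0.27.

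Markers of the tissue and of other cells stand beside these values. All 11 cortical marker genes had an FPKM above 10 in every group, with the lowest at 12.6 for Emx2 in control, and their summed FPKM was 995.1 in controls, 897.9 in unaffected fetuses and 1158 in affected fetuses. Their median log2 difference was -0.11 in unaffected and 0.33 in affected offspring against control. The markers of radial glia and astrocyte precursors had a summed FPKM of 2562, 2711 and 1942, of which Fabp7 made up 2015, 2151 and 1352, those of neurons 3324, 3305 and 3156, and those of choroid plexus 1014, 1341 and 1124. Of the 9 radial glial markers, 5 were above control in affected offspring, with a median log2 difference of 0.21, and of the 7 neuronal markers 4 were, with a median of 0.03. Endothelial markers had 65.1, 64.9 and 70.1, microglial markers 51.0, 53.4 and 43.6, and meningeal markers 97.9, 90.1 and 87.6. The largest part of the endothelial sum was Cldn5, at 36.9, 38.4 and 33.9, while the other 6 of the 7 endothelial markers were above control in affected offspring. The median log2 difference of the 7 was 0.28 against control and 0.42 against unaffected, with 2 and 4 higher past the fold, where 8.59% and 16.3% of all loci were. In affected against control offspring, the median was -0.15 for microglial, -0.06 for meningeal and 0.13 for choroid plexus markers. No marker found in the table was at 0 in any group. The part of cell makeup in the levels of the 10 genes was not tested.

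Over the 3 groups, many genes shared the pattern of Acly. The nearest by Euclidean distance of the pair of log2 differences against control, among 8936 singly named loci with a mean FPKM of at least 5, were Anp32e, Usp25, Dvl2, Tars and Dctd, at distances of 0.0037 to 0.0085. Anp32e, for example, had an FPKM of 61.8 in controls, 62.8 in unaffected fetuses and 71.6 in affected fetuses. As many as 207 loci lay within 0.05 of Acly, and with 3 group values this likeness is weak.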

How the data were processed

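RNA-seq libraries (Illumina TruSeq RNA, paired-end reads) came from 9 fetuses. The labels give Trizol and the methods an RNeasy kit for the RNA. The submitters' processing notes list Bowtie2 2.2.4.0, Cufflinks, Cuffdiff and mm10, while the methods name STAR, and also Bowtie with TopHat. Per the file headers, the authors deposited FPKM, 1 value per group and locus made by Cuffdiff, beside their own fold changes, test statistics, p-values and q-values for 3 comparisons, which were not used. Columns of single animals numbered 0, so there was no test, error or leave-one-out. Fragment totals were not used here, so the depth behind a value is unknown, and low values are the least precise.

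Symbols were matched after splitting joined names, which 351 loci carry. Log2 differences used FPKM + 0.1, with a minimum mean FPKM of 1 over the groups and a limit of 1.3-fold. For a symbol in several loci, the locus with the highest mean FPKM was taken. From each pathway list, up to 4 genes with the largest absolute difference of affected against control are named, except for some that are not reported here, and the members' nearest patterns were sought for the gene with the widest range. Other genes are named for their role, chosen after their values were seen. The members and lists were chosen with earlier results of these data known. Lengths are those of the longest GENCODE M21 transcript, with older symbols matched where unique. The trend was a running median over loci ordered by length. Calls and trend removal were tested on simulated data. The simulated folds were well beyond the limit and free of noise, so calls near 1.3-fold were not tested. Alternatives covered the pseudocount, minimum, fold, scaling, length and joined loci. The scalings of the pathway lists were added after seeing the data. Python 3.11.15, pandas 2.3.3, NumPy 2.4.6 and Matplotlib 3.10.9 were used.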

Additional observations from a re-analysis of the deposited data

How the results depend on the processing

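No paired analysis was possible because the table holds 1 value per group and no value of a single animal, and for the same reason no animal could be left out in turn. Under 12 alternative settings, all 72 counts of genes past the fold were 0, with a fold of 1.2, 1.5 or 2, a pseudocount of 1 or none, no minimum or a minimum of 5, and each scaling. Several settings could not change the counts. Folds of 1.5 and 2 lie beyond the 1.3-fold limit that no gene passed. Each gene above the minimum has 1 singly named entry with a mean FPKM above 5. A minimum of 5, adding up entries of a symbol and leaving out joined loci therefore repeat the main values. The median log2 difference of the genes in affected against control offspring became -0.03 with division by Gapdh and Ywhaz, from 0.08, and no other median moved by 0.1 or more. Gapdh and Ywhaz were themselves higher in affected offspring, by 0.15 and 0.05 on the log2 scale. The 243 values of single genes under the alternatives include those repeats. Among them, division by Gapdh and Ywhaz lowered every gene by about 0.1 in affected against control offspring. Acly, for example, went from 0.21 to 0.11. The only other move of at least 0.1 was that of Aldh1b1 in affected against unaffected offspring, from 0.18 to 0.31 with the length trend removed. The sign changed under some setting for 6 of 27 differences, each between -0.01 and 0.08 as reported: Cat in both comparisons with affected offspring, Acly in unaffected against control, Acss1 and Aldh3a2 in affected against unaffected, and Aldh7a1 in affected against control. The share of all loci past the fold in affected against control offspring went from 8.59% higher and 8.35% lower to 3.42% and 3.01% at 1.5-fold, and to 17.5% and 15.6% at 1.2-fold. Without values of single animals, a difference of the size seen here cannot be set against the spread between fetuses.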

Other observations

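All 10 histone acetyltransferase genes had an FPKM of at least 1, and 4 of them were higher past the 1.3-fold limit in affected against control offspring, with a median log2 difference of 0.30. Of all loci, 8.59% were higher and 8.35% lower past it. These 4 lie close to the limit of 0.38, and 0 of the 10 were past it with division by Gapdh and Ywhaz, where the median was 0.20, or with the length trend removed, where it was 0.15. Kat6a, Ep300, Kat6b and Crebbp differed most, at 0.44, 0.40, 0.40 and 0.38. Ep300, which acetylates histones at enhancers, had an FPKM of 8.08 in controls, 6.57 in unaffected fetuses and 10.7 in affected fetuses. Against unaffected offspring, 5 were higher and 1 lower past the limit, where 16.3% of all loci were higher and 14.3% lower. With the length trend removed, 0 were. Of the 7 sirtuins, which remove acyl groups with NAD, 0 were past the limit in affected against control offspring. With division by Gapdh and Ywhaz, 1 was lower past it, as were 14.3% of all loci. Sirt7, Sirt4, Sirt3 and Sirt5 had the largest differences against control in affected offspring, at -0.28, -0.25, -0.22 and 0.12.

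Of 18 genes of the peroxisome, where catalase works, 0 were past the limit in affected against control offspring, with a median of -0.03. Of all loci, 8.59% were higher and 8.35% lower past it in that comparison. With division by Gapdh and Ywhaz, 2 of the 18 were lower past it, as were 14.3% of all loci. Against unaffected offspring, 1 was higher and 3 were lower past the limit, beside the 16.3% and 14.3% of all loci. Division by Gapdh and Ywhaz gave 0 higher and 5 lower there, beside 12.7% and 19.2% of all loci. With the length trend removed, 0 were higher and 2 lower, beside 6.3% and 7.22%, and the median went from -0.14 to 0.04. Pex3, Pex7 and Pex2 were among those with the largest differences against control in affected offspring, at -0.34, -0.29 and -0.27. Of the 7 transporters and partners for monocarboxylates such as acetate, 4 had an FPKM of at least 1, and 0 of these were past the limit against control in affected offspring. Bsg, Slc16a7, Slc16a1 and Slc16a3 had differences of -0.21, 0.15, 0.09 and 0.05. Slc16a3 had an FPKM of 1.65 in controls, 2.45 in unaffected fetuses and 1.72 in affected fetuses.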
